A study of Mus musculus with 8 samples.

Results

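The genes followed here are 10 transcription factors and cofactors through which blood cells arise from embryonic endothelium: Runx1, Cbfb, Tal1, Lyl1, Lmo2, Cbfa2t3, Gfi1, Gfi1b, Spi1 and Myb. They were chosen by name, not by measured values, though with earlier results of these data known. They are 10 of the 24015 genes in the count table. RNA-Seq was carried out on sorted cells of the mouse aorta-gonad-mesonephros region at E11.5, taken with the vitelline and umbilical arteries (AGM+VU). Each library held 100 cells, from a single embryo or a pool of embryos of the same genotype. Hematopoietic clusters were gated as Ter119- VE-Cadherin+ Kit+ and endothelium as Ter119- VE-Cadherin+ Kit- CD41- CD45-, in WT embryos and in Sl/Sl embryos, whose deletion removes the gene for Kit ligand (Kitl). The 4 groups were WT clusters, Sl/Sl clusters, WT endothelium and Sl/Sl endothelium, with 2 libraries each. Sl/Sl embryos lack Kitl in every tissue and from the zygote on. Steel mice were kept on a C57BL/6 background, per the study's methods. The cells were sorted in separate experiments, and the labels do not state which library came from which experiment. The p-values below therefore measure the spread between libraries, which may be partly technical.

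Hemogenic endothelium is the part of the arterial wall that turns into blood. The switch requires the core binding factor, in which Runx1 binds DNA and Cbfb, its non-DNA-binding partner, stabilises it. Tal1 and Lyl1, related helix-loop-helix proteins, join Lmo2, a LIM-domain bridging protein, and GATA factors in a complex that can recruit the corepressor Cbfa2t3. Gfi1 and Gfi1b are zinc finger repressors induced by Runx1 that turn off endothelial genes, Spi1 (PU.1) is the Ets factor of the myeloid lineage, and Myb is needed for definitive but not for primitive hematopoiesis.

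In mm9, the build of the files, Runx1 spans chromosome 16, 92601711 to 92826319, on the minus strand, and Cbfb chromosome 8, 107694574 to 107741888, on the plus strand. Tal1 lies on chromosome 4 (114729031 to 114744360, plus), Lyl1 on chromosome 8 (87225356 to 87228615, plus), Lmo2 on chromosome 2 (103798152 to 103822035, plus) and Cbfa2t3 on chromosome 8 (125149036 to 125223009, minus). Gfi1 lies on chromosome 5 (108145674 to 108154825, minus), Gfi1b on chromosome 2 (28464970 to 28477502, minus), Spi1 on chromosome 2 (90936954 to 90955913, plus) and Myb on chromosome 10 (20844736 to 20880790, minus). The counts are sums over the exons of each gene, UTRs included. The setting for strand is not given in the sources used here, and annotated genes on the opposite strand share 491 exon bases with Myb (13% of its exon length), 295 with Cbfa2t3 (3.70%), 106 with Runx1 (1.44%), 19 with Gfi1 and 5 with Lyl1. Reads from those bases cannot be assigned to 1 of the genes.

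Promoter sequences of RefSeq, on GRCm38.p6, show which letters known to be bound by these factors stand at their own start sites. Entries were found for 8 of the 10 genes, with 12 start sites in all, and Lmo2 and Spi1 had none. Each entry holds 300 bases, 250 before and 50 after the start, and positions count from 1 at the first base after the start. Both strands were searched for TGTGGT as the core of the RUNX motif, AGATAA as that of GATA proteins, GGAAGT as that of Ets proteins, AAATCA as that of Gfi proteins and CAGATG as an E-box of helix-loop-helix proteins, with matches in capitals. The 6 promoters printed are those of Runx1, one of the genes that differ most between cell types below, at both of its start sites, and of 4 genes with a match whose levels are compared with it.
Runx1 distal start, chr16:92826025-92826324, minus strand: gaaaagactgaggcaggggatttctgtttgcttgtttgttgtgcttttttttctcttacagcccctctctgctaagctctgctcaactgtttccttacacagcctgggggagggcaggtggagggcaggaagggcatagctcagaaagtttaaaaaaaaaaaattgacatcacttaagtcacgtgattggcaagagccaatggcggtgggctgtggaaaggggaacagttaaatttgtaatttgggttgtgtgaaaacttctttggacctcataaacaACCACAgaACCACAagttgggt
Runx1 proximal start, chr16:92697280-92697579, minus strand: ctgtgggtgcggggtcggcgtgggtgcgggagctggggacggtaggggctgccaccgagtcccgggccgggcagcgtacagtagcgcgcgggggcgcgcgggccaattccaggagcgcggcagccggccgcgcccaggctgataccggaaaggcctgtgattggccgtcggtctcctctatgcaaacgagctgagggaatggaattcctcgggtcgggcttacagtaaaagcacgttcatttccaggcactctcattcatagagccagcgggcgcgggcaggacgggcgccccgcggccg
Gfi1b, chr2:28621933-28622232, minus strand: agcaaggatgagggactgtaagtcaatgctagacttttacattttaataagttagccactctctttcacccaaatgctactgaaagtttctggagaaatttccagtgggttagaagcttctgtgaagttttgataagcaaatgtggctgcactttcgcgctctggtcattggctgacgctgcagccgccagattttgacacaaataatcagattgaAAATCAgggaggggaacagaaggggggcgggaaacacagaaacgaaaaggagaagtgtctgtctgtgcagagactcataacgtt
Cbfb, chr8:105170424-105170723, plus strand: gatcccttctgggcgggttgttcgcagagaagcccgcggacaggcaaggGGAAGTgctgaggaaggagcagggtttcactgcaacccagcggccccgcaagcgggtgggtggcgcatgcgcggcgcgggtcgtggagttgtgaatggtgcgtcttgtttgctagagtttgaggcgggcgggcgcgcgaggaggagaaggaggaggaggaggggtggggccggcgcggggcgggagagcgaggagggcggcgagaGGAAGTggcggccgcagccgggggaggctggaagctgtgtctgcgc
Cbfa2t3 upstream start, chr8:122699060-122699359, minus strand: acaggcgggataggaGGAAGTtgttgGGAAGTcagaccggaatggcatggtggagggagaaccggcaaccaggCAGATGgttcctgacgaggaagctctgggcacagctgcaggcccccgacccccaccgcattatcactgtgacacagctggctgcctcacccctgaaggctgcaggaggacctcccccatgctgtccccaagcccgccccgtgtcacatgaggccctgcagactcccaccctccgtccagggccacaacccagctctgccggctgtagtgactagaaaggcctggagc
Tal1 upstream start, chr4:115056176-115056475, plus strand: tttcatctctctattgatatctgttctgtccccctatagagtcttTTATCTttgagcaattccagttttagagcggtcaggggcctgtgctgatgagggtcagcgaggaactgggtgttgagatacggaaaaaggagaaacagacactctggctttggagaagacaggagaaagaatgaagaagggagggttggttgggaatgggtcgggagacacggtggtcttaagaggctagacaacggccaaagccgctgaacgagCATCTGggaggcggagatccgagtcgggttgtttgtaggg

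The distal Runx1 promoter held the RUNX letters at positions 29 and 37, both as ACCACA, and the proximal one held none of the 5 motifs. At least 1 RUNX match was found in 16.8% of 32851 promoters of the same length and 2 or more in 1.81%. Gfi1b had 1 Gfi match at -34, a motif present in 14.0% of promoters. The Cbfb promoter had Ets matches at -201 and 5, and the upstream Cbfa2t3 promoter had Ets matches at -235 and -224 and an E-box at -177. Ets letters stood in 23.8% of all promoters, 2 or more in 4.18%, and the E-box in 17.2%. The upstream Tal1 promoter had a GATA match at -205 (11.2% of all promoters) and an E-box at 11, and Myb had an E-box at 30. The promoters of Lyl1 and Gfi1 and the second ones of Tal1 and Cbfa2t3 held none of these letters. Matches of 6 letters are a description of the sequence and not evidence of binding.

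Libraries summed to between 8933236 and 13428214 counts, with 12844 to 14309 genes detected. Kitl had 1250 and 923 counts in WT endothelium, 6 and 2 in Sl/Sl endothelium, 110 and 0 in WT clusters and 1 and 3 in Sl/Sl clusters, so that the second WT cluster library does not differ from Sl/Sl by this gene. The pan-leukocyte gene Ptprc (CD45) had 1294 to 3908 counts in the 4 cluster libraries and 6 to 16 in the endothelium, whose gate excludes CD45+ cells. The endothelial cadherin Cdh5 had 4480 to 8240 counts in endothelium, 2531 and 154 in WT clusters and 1817 and 659 in Sl/Sl clusters. Summed over 8 endothelial markers, all detected in every library, the level was 206 to 896 CPM in WT clusters, 442 to 1744 CPM in Sl/Sl clusters and 4303 to 5102 CPM in endothelium. CPM values, counts scaled to a common library total, are corrected with TMM factors, which align the bulk of genes between libraries. Smart-seq2 attaches no molecular identifiers, so counts amplified by PCR are not independent molecules. In such samples, fewer expressing cells and less RNA per cell cannot be told apart.

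Levels are given as RPKM, counts scaled to library total and exon length, which allows genes to be compared. In WT clusters the 10 factors lay between 15.0 RPKM for Gfi1 and 105 RPKM for Lmo2. In the endothelium they lay in separate ranges, with Lmo2, Cbfb, Lyl1, Cbfa2t3 and Tal1 at group means of 9.28 to 66.0 RPKM and Spi1, Myb, Gfi1b, Gfi1 and Runx1 at 0.269 to 4.45 RPKM. Lmo2 had the highest mean of the 10 in 3 of the 4 groups and Spi1 in Sl/Sl clusters, while Runx1 had the lowest mean in both endothelial groups. The libraries of Lmo2 overlapped those of Cbfb, next in order, in both endothelial groups, and those of Spi1 overlapped those of Lmo2 in Sl/Sl clusters. At the low end, the libraries of Runx1 overlapped those of Gfi1 in both endothelial groups and those of Myb in Sl/Sl endothelium.

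**Figure D1:**
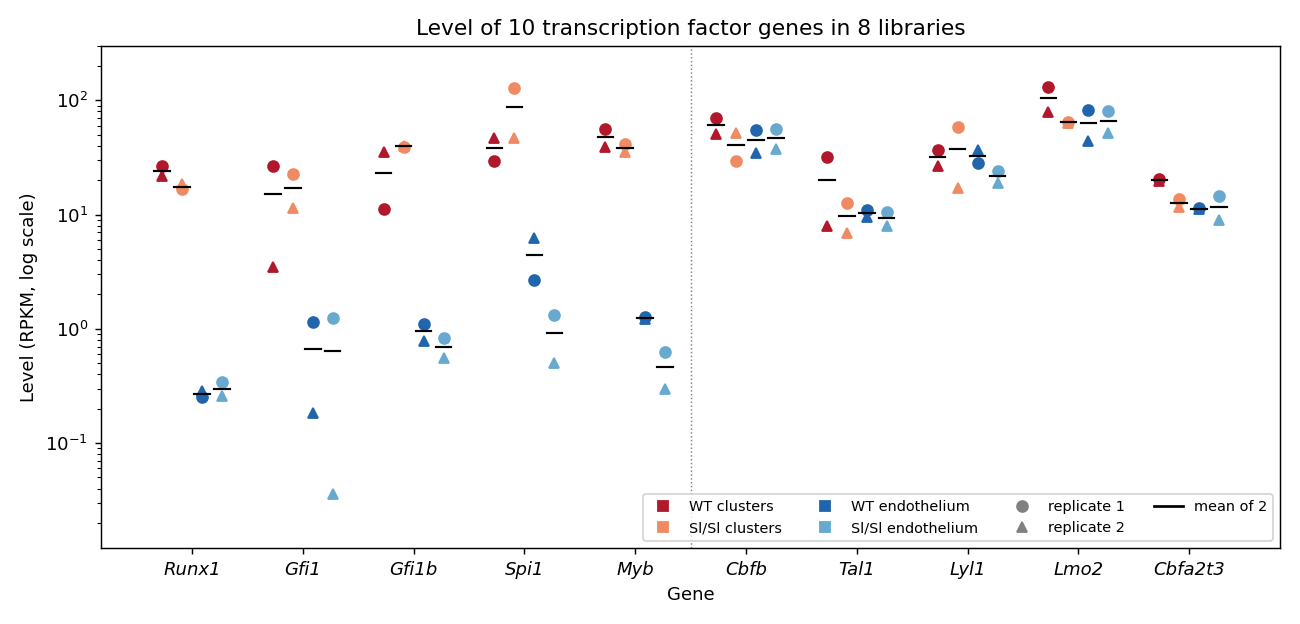
Level of each of the 10 genes in the 8 libraries, in RPKM on a log scale, with 1 point per library and a bar at the mean of the 2 libraries of a group. For the 5 genes left of the dotted line, every cluster library lies above every endothelial library, with Runx1 at 16.8 to 26.6 RPKM in clusters and 0.253 to 0.342 RPKM in endothelium.

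Clusters were first compared with endothelium to ask which of the factors mark the cells that have turned to blood. Over both genotypes, 5 of the 10 were higher in clusters and 0 lower in edgeR's quasi-likelihood test at a Benjamini-Hochberg adjusted p under 0.1, the threshold of the study. Of all 13908 genes tested, 16.6% were called, 8.12% higher and 8.48% lower, and DESeq2 called the same 5, with 24.6% of genes called. All 10 genes passed the filter on low counts. The median log2 fold change of the 10 was 2.42, against 0.067 for all genes tested. The same 5 genes were those in which the libraries of the cell types did not overlap on CPM, as was the case, in the same direction, for 9.57% of genes.

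Within the core binding factor, the DNA-binding subunit had the highest fold change of the 10 over both genotypes. Its interval overlapped those of Myb, Gfi1b, Spi1 and Gfi1. Runx1 was at 26.6 and 21.8 RPKM in WT clusters, 16.8 and 18.4 in Sl/Sl clusters, 0.253 and 0.284 in WT endothelium and 0.342 and 0.258 in Sl/Sl endothelium. Clusters exceeded endothelium by a log2 fold change of 6.04 (SE 0.30, n = 4 and 4 libraries), or 65.9-fold, with an adjusted p of 5.96e-05 in edgeR's quasi-likelihood test. The lowest cluster library stood 46.3-fold above the highest endothelial one. Endothelial Runx1 rested on 17 to 30 counts per library.

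Its partner Cbfb did not follow it. Cbfb was at 70.2 and 50.8 RPKM in WT clusters, 29.4 and 51.5 in Sl/Sl clusters, 55.5 and 34.8 in WT endothelium and 56.0 and 37.6 in Sl/Sl endothelium, so that all 4 groups overlapped. Its log2 fold change between cell types was -0.03, with a 95% interval of -0.63 to 0.58, and an adjusted p of 0.983 in edgeR's quasi-likelihood test. Set against each other within a library, Cbfb RNA was 1.76 to 2.80 times that of Runx1 per length in clusters and 122 to 219 times in endothelium.

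**Figure D2:**
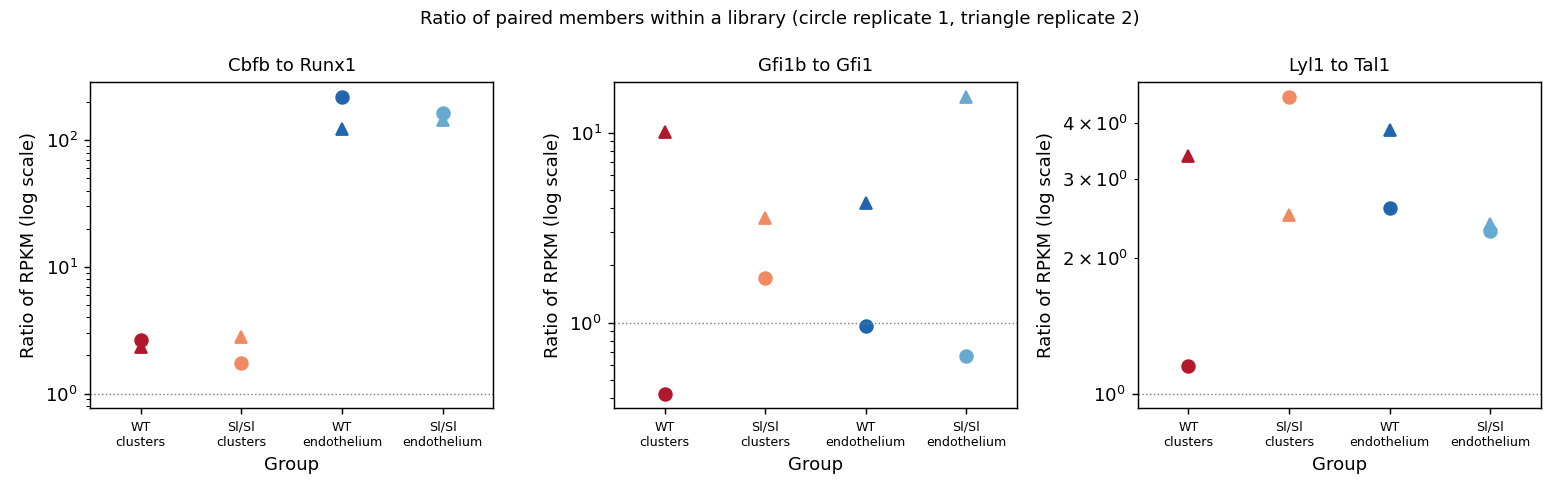
Ratio of RPKM values within each library, on a log scale, for Cbfb to Runx1, Gfi1b to Gfi1 and Lyl1 to Tal1, with 1 point per library. The Cbfb to Runx1 ratio is 1.76 to 2.80 in clusters and 122 to 219 in endothelium, whereas for the other ratios the range of the WT clusters overlaps those of the other 3 groups.

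The members of the helix-loop-helix and LIM complex were expressed in both cell types. Tal1 was at 31.9 and 7.96 RPKM in WT clusters, 12.7 and 6.88 in Sl/Sl clusters, 10.9 and 9.54 in WT endothelium and 10.5 and 8.01 in Sl/Sl endothelium. The first WT cluster library, at 31.9, stood well above the 7 others. Its log2 fold change was 0.38 (95% interval -0.62 to 1.39). Without that library, the value was -0.25. Lyl1, which can stand in for Tal1 in adult hematopoiesis, was at 36.7 and 26.9 RPKM in WT clusters, 58.0 and 17.2 in Sl/Sl clusters, 28.3 and 36.8 in WT endothelium and 24.3 and 19.1 in Sl/Sl endothelium. The Sl/Sl cluster libraries held both its highest and its lowest value, and the log2 fold change between cell types was 0.26 (-0.66 to 1.17), or -0.34 without the first of them. Per length, Lyl1 exceeded Tal1 in all 8 libraries, by 1.15 to 4.57 times.

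Lmo2, which bridges the DNA-binding members, was at 131 and 78.7 RPKM in WT clusters, 65.1 and 63.2 in Sl/Sl clusters, 81.7 and 44.4 in WT endothelium and 80.6 and 51.4 in Sl/Sl endothelium. Both cell types overlapped, with a log2 fold change of 0.22 (95% interval -0.40 to 0.83). Cbfa2t3, the corepressor, was at 20.4 and 19.9 RPKM in WT clusters, 13.6 and 11.8 in Sl/Sl clusters, 11.4 and 11.3 in WT endothelium and 14.5 and 8.95 in Sl/Sl endothelium. Here the WT clusters stood above the 6 other libraries, although the log2 fold change over both genotypes was 0.35 (-0.18 to 0.87) and was not called. The edgeR quasi-likelihood test gave Cbfb and these 4 genes adjusted p-values of 0.382 to 0.983, and the intervals leave room for changes of up to 1.39 on the log2 scale.

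The zinc finger repressors were both higher in clusters. Gfi1b, which is also required in erythroid and megakaryocytic cells, was at 11.2 and 35.1 RPKM in WT clusters, 38.9 and 40.1 in Sl/Sl clusters, 1.11 and 0.784 in WT endothelium and 0.830 and 0.553 in Sl/Sl endothelium. Its log2 fold change was 5.09 (SE 0.58, adjusted p = 0.00103 in edgeR's quasi-likelihood test). Gfi1, the member of the pair associated with the first loss of endothelial character, was at 26.5 and 3.51 RPKM in WT clusters, 22.6 and 11.4 in Sl/Sl clusters, 1.15 and 0.184 in WT endothelium and 1.24 and 0.0360 in Sl/Sl endothelium. It rose by 4.46 (SE 1.09, adjusted p = 0.0319), the least precise value of the 10, and leaving out 1 library at a time moved it between 3.45 and 6.50 with the call kept.

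The repressors did not vary together within the WT clusters. Replicate 1 had 886 counts of Gfi1 and 220 of Gfi1b, and replicate 2 had 137 and 804, so that the ratio of Gfi1b to Gfi1 per length was 0.423 in the one and 10.01 in the other. In Sl/Sl clusters the ratio was 1.73 and 3.53. The 2 WT cluster libraries also differed in Gata1, the erythroid and megakaryocytic GATA factor, with 17 and 153 counts. Their 7 megakaryocyte markers summed to 279 and 1147 CPM and their 9 macrophage markers to 819 and 270 CPM. The Sl/Sl cluster libraries differed in the same direction, with 62 and 236 counts of Gata1. Megakaryocyte markers summed to 453 and 1663 CPM in them and macrophage markers to 823 and 420 CPM. The macrophage sums of the WT pair differed mostly through Lyz2, at 406 ± 390 CPM (SD, n = 2) in WT clusters. Cd68 was at 55.1 ± 7.70 CPM and Csf1r at 31.0 ± 10.8 CPM there. The part of these cell types in the ratio was not tested. In endothelium the ratio ran from 0.667 to 15.3, where Gfi1 had 46, 6, 46 and 1 counts.

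Spi1 and Myb, which direct the progeny of the clusters, were also higher there. Spi1 was at 29.7 and 46.8 RPKM in WT clusters, 129 and 47.0 in Sl/Sl clusters, 2.69 and 6.22 in WT endothelium and 1.32 and 0.504 in Sl/Sl endothelium, a log2 fold change of 4.71 (SE 0.58, adjusted p = 0.00154 in edgeR's quasi-likelihood test). Myb was at 56.8 and 39.1 RPKM in WT clusters, 41.8 and 35.2 in Sl/Sl clusters, 1.26 and 1.21 in WT endothelium and 0.623 and 0.296 in Sl/Sl endothelium. It rose by 5.69 (SE 0.35, adjusted p = 6.44e-05). Macrophage markers, some of which are targets of Spi1, summed to 270 to 823 CPM in clusters and 6.57 to 35.0 CPM in endothelium, and 3 to 8 of the 9 were detected in each endothelial library. Their part in the Spi1 result was not tested.

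Traces of the 5 genes in endothelium were set beside those of other blood genes. The mean endothelial CPM was 1.49% of the cluster mean for Runx1, 2.14% for Myb, 2.83% for Gfi1b, 4.44% for Gfi1 and 4.61% for Spi1. It was 0.439% for Ptprc, against which endothelial cells were sorted, 2.82% for the granule enzyme gene Mpo, 26.6% for Kit and 45.9% for Itga2b (CD41). Kit and CD41 were also excluded by the endothelial gate, and the libraries of Itga2b overlapped between the cell types. For the GATA partners of the complex, it was 10.2% for Gata1 and 53.4% for Gata2. Cells of the wrong gate and low expression in endothelial cells cannot be told apart here.

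Within each genotype, 4 of the 5 genes were called again. In WT, where 8.24% of genes were called and 3.68% were higher, Runx1 (log2 fold change 6.35, SE 0.44), Myb (5.14, SE 0.48), Gfi1b (4.50, SE 0.80) and Spi1 (2.97, SE 0.76) were higher in clusters. Gfi1 was at 4.33 (SE 1.53) with an adjusted p of 0.161 in edgeR's quasi-likelihood test. The WT call of Spi1, with an adjusted p of 0.0624, was lost without replicate 2 of the clusters (adjusted p = 0.162) or without replicate 1 of the endothelium (adjusted p = 0.204). In Sl/Sl, where 2.83% of genes were called and 1.84% were higher, the values were 6.44 for Spi1 (SE 0.90), 6.24 for Myb (SE 0.51), 5.73 for Runx1 (SE 0.43) and 5.69 for Gfi1b (SE 0.85), and Gfi1 was at 4.59 (SE 1.55, adjusted p = 0.215). DESeq2 called all 5 genes in each genotype, with 19.2% of genes called in WT and 10.8% in Sl/Sl. In WT, the libraries of Cbfa2t3 also did not overlap, at a log2 fold change of 0.71 (SE 0.33, adjusted p = 0.282 in edgeR's test), as for 25.6% of genes in that direction.

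**Figure D3:**
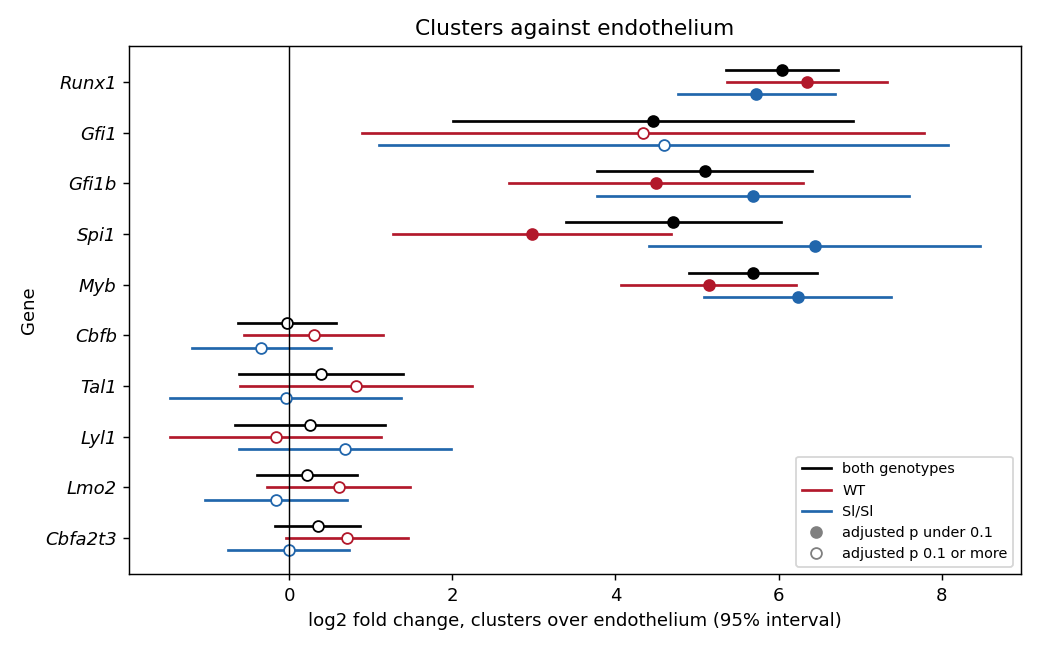
log2 fold change of clusters over endothelium for each of the 10 genes, over both genotypes and within each, with 95% intervals; filled points have an adjusted p under 0.1. Runx1, Gfi1b, Spi1 and Myb are called in all 3 comparisons, Gfi1 in that over both genotypes, and the intervals of the remaining 5 genes include 0.

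Sl/Sl was then compared with WT to ask whether the factors depend on Kitl. In clusters, 0 of the 10 genes were called in edgeR's quasi-likelihood test, where 0% of the 13908 genes were. All adjusted p-values were 1. At an unadjusted p under 0.05, 0 of the 10 and 4.22% of all genes were found. DESeq2 called 0 of the 10 and 1.16% of genes. The median log2 fold change of the 10 was -0.37, against 0.030 for all genes, with 6 of the 10 below 0. The libraries of the genotypes did not overlap on CPM for 5 of the 10, 4 lower and 1 higher in Sl/Sl, as for 16.2% of all genes lower and 16.4% higher. A single gene in an exact permutation test of this size cannot go below p = 0.333.

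On CPM, those lower in every Sl/Sl cluster library were Cbfa2t3, Lmo2, Cbfb and Runx1; on RPKM, which uses plain totals, Cbfb overlapped. The mean of Cbfa2t3 was 20.2 ± 0.37 RPKM (SD, n = 2) in WT and 12.7 ± 1.29 in Sl/Sl clusters. Its log2 fold change was -0.65 (95% interval -1.39 to 0.090, unadjusted p = 0.0783 in the edgeR quasi-likelihood test). On RPKM, its Sl/Sl clusters overlapped the Sl/Sl endothelium and lay above both WT endothelial libraries. On CPM they overlapped the WT endothelium too, at 107 and 88.1 against 92.2 and 95.3. For Runx1 the means were 24.2 ± 3.40 and 17.6 ± 1.17 RPKM (SD, n = 2), a log2 fold change of -0.44 (-1.21 to 0.32). Lmo2 differed by -0.68 (-1.56 to 0.19) and Cbfb by -0.57 (-1.42 to 0.29). Tal1, at -0.98 (-2.41 to 0.45), overlapped between the genotypes, and the difference became 0.28 without replicate 1 of the WT clusters. Myb, at -0.29 (-1.19 to 0.60), and Lyl1, at 0.28 (-1.02 to 1.57), overlapped too.

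The Sl/Sl cluster libraries both exceeded the WT ones in Gfi1b, with means of 39.5 ± 0.85 and 23.2 ± 16.9 RPKM (SD, n = 2) and a log2 fold change of 0.76 (95% interval -0.79 to 2.31). It was 0.15 without replicate 1 of the WT clusters and 1.86 without replicate 2. Spi1 was at 87.9 ± 57.8 RPKM in Sl/Sl and 38.2 ± 12.1 in WT clusters (SD, n = 2), a log2 fold change of 1.22 (-0.37 to 2.81), with replicate 1 of Sl/Sl, at 2058 counts, above the other 3 libraries at 426 to 842 counts. Without that library the value for Spi1 was 0.27, and without replicate 2 of Sl/Sl it was 1.79. Gfi1, at 0.23 (-2.75 to 3.21), had the widest interval of the 10. Endothelial markers summed to 1744 and 442 CPM in Sl/Sl clusters and 896 and 206 CPM in WT, and 8 mesenchymal markers to 33.5 and 4506 CPM in Sl/Sl and 756 and 1031 CPM in WT. Replicate 1 of the WT clusters stood apart in the sum of 6 germ cell markers, at 84.8 CPM against 4.17 to 19.0 CPM elsewhere. Most of that sum was 1 gene, Dppa3, at 38.4 ± 54.2 CPM (SD, n = 2) in WT clusters and 0 in the other groups. Pou5f1 was at 0 in all groups. Erythroid markers, of which 4 or 5 of 10 were detected per library, were at 247 CPM in replicate 1 of the Sl/Sl clusters and 21.5 to 96.1 CPM in the other 7 libraries. The part of these cells in the values of the 10 genes was not tested.

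In endothelium, 0 of the 10 genes were called between the genotypes, as were 0% of all genes. An unadjusted p under 0.05 was reached by 2 of the 10 and by 4.17% of all genes, and DESeq2 called 0 of the 10 and 0.856% of genes. Myb had 61 and 48 counts in WT and 28 and 10 counts in the mutant, a log2 fold change of -1.39 (95% interval -2.39 to -0.39, unadjusted p = 0.0119, adjusted p = 1 in edgeR's quasi-likelihood test). Spi1 had 46 and 87 counts in WT and 21 and 6 in the mutant endothelium, a log2 fold change of -2.25 (-4.00 to -0.50, unadjusted p = 0.0172, adjusted p = 1). Neither passed the correction, and both rest on fewer than 100 counts per library. Together with Lyl1, at -0.57 (-1.88 to 0.73), they were the 3 genes whose libraries did not overlap, all lower in Sl/Sl, as for 14.9% of all genes. Ptprc had 16 and 6 counts in WT and 8 and 7 in Sl/Sl endothelium, and macrophage markers summed to 15.1 and 35.0 CPM in WT and 6.57 and 20.3 CPM in Sl/Sl. Runx1, with 24 and 22 counts in WT endothelium and 30 and 17 in the mutant, differed by 0.18 (-0.68 to 1.04).

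**Figure D4:**
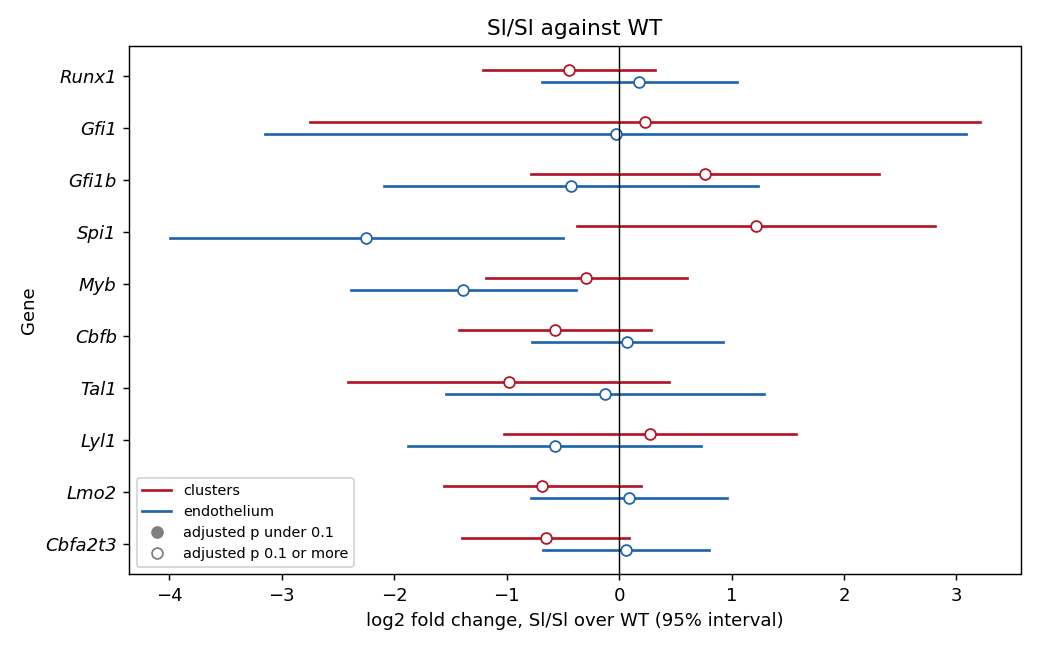
log2 fold change of Sl/Sl over WT for each of the 10 genes in clusters and in endothelium, with 95% intervals; open points have an adjusted p of 0.1 or more. No point is filled, and the intervals include 0 except for Spi1 and Myb in endothelium, at -2.25 and -1.39.

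The interaction, which asks whether the genotype difference is unequal in the cell types, gave 0 calls among the 10 genes and 0% of all genes in edgeR's quasi-likelihood test. Spi1 had the smallest p, with a difference of 3.47 on the log2 scale (SE 1.05, unadjusted p = 0.00881, adjusted p = 0.902). It was the 1 gene of the 10 with an unadjusted p under 0.05, which 5.29% of all genes reached. With no filter on low counts the adjusted p of Spi1 became 0.0300. DESeq2 called 0 of the 10 and 0.887% of genes.

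Lists of related genes were followed too: paralogs, partners, corepressors, coactivators and targets of the 10 factors, and other hematopoietic and endothelial transcription factors. Each list is described by how many members were called between clusters and endothelium over both genotypes. Of all genes tested in this comparison, 8.12% were higher and 8.48% lower in clusters. Among 14 paralogs, 10 could be tested and 3 were higher. In WT alone 1 was higher and in Sl/Sl alone 0, beside 3.68% and 1.84% of all genes. Runx3, the paralog of Runx1 known from lymphoid and myeloid cells, had 216 and 799 counts in WT clusters, 23 and 284 in Sl/Sl clusters and 0 to 4 in endothelium. Lmo1 had 110, 39, 285 and 122 counts in clusters and 0 to 2 in endothelium, and Runx2, known for its part in bone, had 27 to 365 counts in clusters and 18, 0, 0 and 0 in endothelium. Lmo3 was not called, with 94 and 129 counts in the second cluster library of each genotype and 0 or 1 elsewhere.

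Of 12 DNA-binding and adaptor partners of Tal1, Lyl1 and Lmo2, 3 were higher and 1 was lower in clusters, beside 16.6% of all genes called. Within WT 1 was higher and 1 lower, and within Sl/Sl 0 were called, beside 8.24% and 2.83% of all genes. Gata2, the GATA factor of stem and progenitor cells, rose by 0.94 on the log2 scale (SE 0.28, adjusted p = 0.0618 in edgeR's quasi-likelihood test). Its mean was 91.0 ± 4.98 CPM (SD, n = 2) in WT clusters and 28.9 ± 7.20 CPM in WT endothelium. In Sl/Sl the means lay closer, at 60.4 ± 1.81 CPM in clusters and 51.9 ± 2.42 CPM in endothelium. Ssbp2 rose by 1.08 and Ssbp3 by 0.78, both cofactors of the Ldb1 adaptor. The E protein gene Tcf4 fell by 1.04 (SE 0.21, adjusted p = 0.0151). None of 12 corepressor genes through which Gfi1, Gfi1b and Cbfa2t3 act was called, the smallest p being that of Rcor3 (-0.76, adjusted p = 0.156), followed by Sin3a (0.96, adjusted p = 0.187). Likewise 0 of 6 coactivators of Runx1 and Myb were called, with Kmt2a at -0.70 (adjusted p = 0.148).

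Among 20 myeloid and pan-hematopoietic targets of Runx1 and Spi1, 19 were tested and 16 were higher in clusters. The median log2 fold change over those tested was 5.90, against 0.067 for all genes. In WT alone 14 were higher and in Sl/Sl alone 13, beside 3.68% and 1.84% of all genes. Tyrobp, an adaptor of myeloid receptors, rose by 6.95 (SE 0.38), the granule protease gene Prtn3 by 6.37 (SE 0.36), the Fc receptor gene Fcgr3 by 6.81 (SE 0.64) and Mpo by 5.35 (SE 0.49). Of 18 other hematopoietic transcription factors, 10 were higher and 0 lower, with a median of 1.42. Here 9 were higher in WT alone and 6 in Sl/Sl alone, beside the same shares of all genes. Ikzf1, known from lymphoid development, rose by 6.97 (SE 0.40) and its relative Ikzf2 by 3.26 (SE 0.41), Nfe2, a factor of megakaryocytes and red cells, by 5.52 (SE 0.68) and Hlf, known from hematopoietic stem cells, by 7.20 (SE 0.92). Of 11 endothelial transcription factors, 9 were lower in clusters and 0 higher, with a median of -2.39, where 8.48% of all genes were lower. Fewer passed within a genotype, with 4 lower in WT and 1 in Sl/Sl, beside 8.24% and 2.83% of all genes called. The medians there were -2.88 and -1.94. Ets1 fell by 2.44 (SE 0.35), the Notch target Hey1 by 2.66 (SE 0.45), Elk3 by 1.53 (SE 0.34) and Nr2f2, the factor of venous identity, by 1.66 (SE 0.41).

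**Figure D5:**
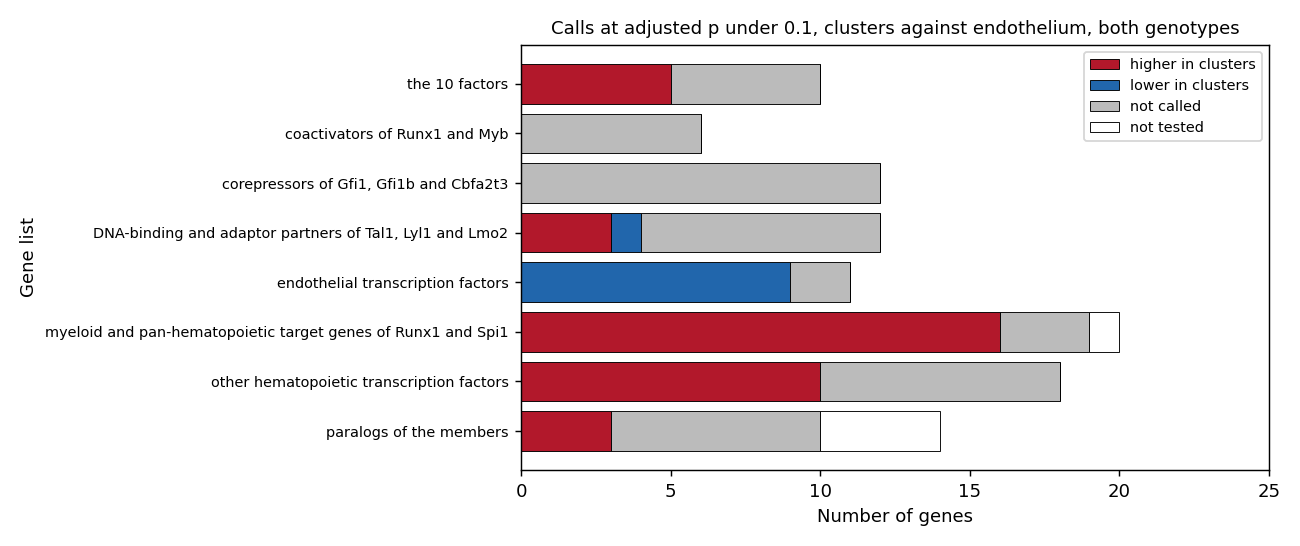
Number of genes called higher, called lower, not called and not tested between clusters and endothelium over both genotypes, for the 10 factors and 7 lists of related genes. The 10 factors hold 5 called genes, the target genes 16 of 20, the other hematopoietic transcription factors 10 of 18, and the endothelial transcription factors 9 called lower of 11.

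Between Sl/Sl and WT clusters, 0 genes of any of the 7 lists were called. The genes with the smallest p were Elane, the neutrophil elastase gene, at 5.46 (SE 0.96, adjusted p = 0.308 in edgeR's quasi-likelihood test), Nr2f2 at 2.13 (SE 0.59, adjusted p = 0.696) and Ikzf1 at -1.46 (SE 0.43, adjusted p = 0.852). Elane had 11 and 30 counts in WT clusters and 1202 and 676 in Sl/Sl clusters. Mpo, which is also expressed in granulocyte precursors, had 1619 and 5535 counts in WT and 7192 and 7838 in Sl/Sl clusters (log2 fold change 1.00, adjusted p = 1).

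Across the 8 libraries, the log2 CPM of Runx1 correlated with that of Myb at a Pearson r of 0.979, of Gfi1b at 0.958, of Spi1 at 0.901 and of Gfi1 at 0.865, and with that of its partner Cbfb at 0.00631. Among the 10 genes, Cbfb correlated most with Lmo2, at 0.762. The 8 points share their cell type in sets of 4, so the high values repeat the difference between clusters and endothelium. Among all genes tested, those most like Runx1 were Slc6a13, Gpr141 and Fcgr1, each at 0.995. For Myb they were Tuba4a at 0.995, Lcp2, a signalling adaptor of blood cells, at 0.993 and Irf8, a myeloid factor, at 0.992. Gfi1 was followed most closely by Tmem41a (0.982), Slc22a4 (0.969) and Bckdha (0.968), and Cbfa2t3 by Gins1 (0.962), Cox17 (0.953) and Dhx16 (0.948). With Spearman's correlation 1 of the 3 genes remained for Gfi1 and 0 for the others.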

How the data were processed

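The authors aligned Smart-seq2 reads to mm9 with STAR 2.4.2a and counted them per gene with featureCounts of Subread 1.4.5; the deposited values are raw counts for 24015 genes in 8 libraries, with exon coordinates and lengths. Annotation, strand setting, treatment of reads with several matches and whether reads or pairs were counted are not given in the sources used here. A spreadsheet had changed 27 gene symbols to dates; these stayed in the tests. Groups were taken from the labels. From the counts, TMM factors were computed with edgeR 4.0.16 in R 4.3.3, genes were kept with filterByExpr, and the quasi-likelihood test was fitted to all 8 libraries with 1 mean per group (biological coefficient of variation 0.817, 4 residual and 5.24 prior degrees of freedom). P-values were adjusted over all 13908 genes by Benjamini-Hochberg, with a threshold of 0.1; the authors used DESeq2 1.12.4, and DESeq2 1.42.0 was an alternative here. RPKM used plain totals and CPM TMM-scaled totals; correlations used log2 CPM with a prior count of 2. Named genes were the 10 factors, up to 4 of each list with the smallest p between cell types and up to 2 between genotypes in clusters, and the 3 genes most correlated with Runx1, Cbfa2t3, Gfi1 and Myb. The 10 factors and the lists were chosen with earlier results of these data known. The fits were tested on simulated data, with changes put into 200 genes with a mean above 50 counts. Each comparison was simulated once, with all other genes equal between the groups compared. In the data 16.6% of genes were called between cell types, so the shares recovered there may differ. Between cell types, changes of 1, 2 and 4 on the log2 scale were called in 13.4%, 41.8% and 83.3% of the genes so changed. Between genotypes in clusters they were called in 0%, 31.3% and 62.1%. Unchanged genes made up 17.1% of the calls between cell types and 10.1% of those between genotypes. Alternatives were DESeq2, RLE size factors, no filter, a mean of at least 50 counts, a threshold of 0.05, the replicate number as a block, fits to the 4 libraries compared, and leaving out each library.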

Additional observations from a re-analysis of the deposited data

How the results depend on the processing

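The number of the 10 factors called in each comparison stayed within 1.5 times under every alternative run, except that with no filter on low counts 1 gene (Spi1) was called in the interaction, against 0. Leaving out each library in turn kept 5 calls over both genotypes and gave 3 to 5 in WT. Gfi1 was called within WT and Sl/Sl by DESeq2 (4.37 and 4.64), with no filter (4.33 and 4.62) and with the replicate block (4.26 and 5.61). Labels give only replicate numbers, and deviations of same-numbered libraries correlated at -0.111 to 0.157 over the 6 pairs of groups, so the numbers are not shown to pair libraries; with the block, 2126, 1180 and 452 of all genes were called between cell types over both genotypes, in WT and in Sl/Sl, and 8 between genotypes in clusters.

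Signs changed for values that were not called. Between cell types over both genotypes, leaving out 1 library gave -0.24 to 0.15 for Cbfb (0.000622 with the block), -0.25 to 0.75 for Tal1 and -0.34 to 0.58 for Lyl1. In WT, Tal1 ran from -0.45 to 1.51 and Lyl1 from -0.37 to 0.063. In Sl/Sl, Tal1 ran from -0.59 to 0.35, Lyl1 from -0.50 to 1.32, Lmo2 from -0.42 to 0.19 and Cbfa2t3 from -0.28 to 0.38; Cbfa2t3, at -0.0097, also became 0.011 with DESeq2, 0.011 with RLE size factors, 0.00283 with no filter, 0.016 with a mean of at least 50 counts, 0.0042 with the block and 0.010 in the 4 libraries compared. Between genotypes in clusters, Tal1 ran from -1.65 to 0.28, Lyl1 from -0.90 to 0.92 and Gfi1 from -0.59 to 2.26. In endothelium, Runx1 ran from -0.020 to 0.34, Cbfb from -0.22 to 0.42, Tal1 from -0.31 to 0.038, Lmo2 from -0.25 to 0.56, Cbfa2t3 from -0.30 to 0.35 and Gfi1 from -4.05 to 1.78. Without a change of sign, leaving out 1 library moved Spi1 between 0.27 and 1.79, Gfi1b between 0.15 and 1.86, Lmo2 between -0.98 and -0.32, Cbfb between -0.98 and -0.24 and Myb between -0.51 and -0.043 in clusters, and Spi1 between -3.09 and -1.47 and Myb between -2.01 and -0.99 in endothelium. In the interaction, Tal1 ran from -1.52 to 0.41, Lyl1 from -0.33 to 1.49 and Gfi1 from -1.55 to 4.28.

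Counts over all genes moved more. Over both genotypes 2310 genes were called between cell types and 1488 at a threshold of 0.05. In WT 1146 were called, against 2409 with DESeq2, 1990 with no filter and 657 at 0.05. In Sl/Sl 393 were called, against 1418 with DESeq2, 1266 with no filter, 222 at 0.05 and 211 in the 4 libraries. Against 0 genes in the other comparisons, DESeq2 called 155 in clusters, 119 in endothelium and 121 in the interaction, no filter gave 253, 65 and 179, and the 4 endothelial libraries alone gave 2. Leaving out 1 library gave 592 to 1329 calls in WT (lowest without WT clusters replicate 2) and 182 to 633 in Sl/Sl (lowest without Sl/Sl clusters replicate 2). Between genotypes it gave 6 to 76 in clusters and 0 to 27 in the interaction, both highest without WT clusters replicate 1, and 0 to 1 in endothelium. With a library left out, 1 group held 1 library, and the filter on low counts kept 14818 to 15167 genes, against 13908. The cause of the changes in these counts was not tested. RPKM with TMM-scaled totals moved 5 of the 40 group means by more than 1 SD. Genes with under 50 counts per library, such as endothelial Runx1, Gfi1 and Gfi1b, and the 2 libraries per group limit what could be detected.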
